A study of Mus musculus with 9 samples.

Results

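The genes described here are 31 members and transcriptional targets of the p53 pathway, chosen by symbol from the 52550 genes of the deposited count table. Each symbol matched 1 row, and all 31 passed the filter on low counts, so every member was tested. RNA came from micromass cultures, dense drops of cells from mouse forelimbs at embryonic day 12, grown under conditions that favour cartilage formation and labelled as chondroblasts. Strain and genotype are not given in the labels. Of the 9 cultures, 3 received Q-VD-OPH (called OPH) at 100 µM, 3 received Z-VAD-FMK (called FMK) at 100 µM and 3 received only the vehicle DMSO, each for 6 days with medium renewed every second day. Both agents inhibit caspases broadly. The study compared each inhibitor with the vehicle, and the equal dose and time allow the inhibitors to be compared with each other. Q-VD-OPH has a quinoline cap, a Val-Asp peptide and a difluorophenoxymethyl ketone, whereas Z-VAD-FMK has a benzyloxycarbonyl cap, a Val-Ala-Asp peptide and a fluoromethyl ketone.

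The p53 protein is a transcription factor that is normally kept low by the ubiquitin ligase Mdm2 and its relative Mdm4. DNA damage and other stresses release it from this control, and it then raises genes that halt the cell cycle, repair DNA, adjust metabolism or promote cell death. Mdm2 is itself a target, which closes a feedback loop, and Cdkn1a (p21) carries much of the cell cycle arrest. Much of p53 control acts on the protein, which was not measured here. Several targets also answer to other factors, such as ATF4 of the integrated stress response.

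The 9 libraries read the 3' ends of polyadenylated RNA and held 5659789 to 6867350 counts. Levels are given in CPM, the counts of a gene per 1000000 counts of the scaled library, and a count stands for a transcript end, so isoforms were not separated. Cartilage genes were present in all 9 libraries, with Col2a1, the main cartilage collagen, at 455 to 924 CPM with OPH, 381 to 448 CPM with FMK and 991 to 1546 CPM with DMSO. Other cells were present too. The 20 macrophage markers summed to 252 to 296 CPM with OPH, 37.4 to 55.0 CPM with FMK and 1563 to 3004 CPM with DMSO. The cell type that supplies a p53 transcript cannot be read from these bulk libraries, where fewer cells of a type and less RNA per cell cannot be told apart. The 12 adipocyte markers summed to 2437, 2992 and 773 CPM in OPH libraries 1, 2 and 3, to 209, 226 and 129 CPM with FMK, and to 2606, 2288 and 501 CPM with DMSO. In each group the library numbered 3 was the lowest, and it had the highest sum of muscle markers. The counts of members are therefore also given without the libraries numbered 3.

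Promoters were examined because many members moved together. RefSeq promoter windows (GRCm38.p6, 250 bases before to 50 after a gene start) were found for 24 of 31 members. Trp53inp1, Zmat3, Tnfrsf10b, Rrm2b, Xpc, Ddb2 and Perp are named only. The windows were searched for the p53 response element decamer, whose letter classes read the same on both strands. At least 1 exact decamer stood in the windows of 9 of the 24 members (37.5%) and of 2582 of 27025 genes (9.55%). The stretches below, from the 7 members with a decamer well upstream of an annotated gene start, show it in capitals, on the strand of the gene and with positions counted back from that start.
Cdkn1a (chr17:29090829-29090968, plus strand, -150 to -11): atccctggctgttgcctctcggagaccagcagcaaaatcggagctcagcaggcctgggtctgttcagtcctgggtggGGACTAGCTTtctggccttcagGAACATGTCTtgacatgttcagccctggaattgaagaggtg
Ccng1 (chr11:40755452-40755481, minus strand, -195 to -166): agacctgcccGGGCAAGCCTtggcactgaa
Mdm2 (chr10:117710925-117710954, minus strand, -196 to -167): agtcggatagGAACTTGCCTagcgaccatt
Polk (chr13:96519399-96519428, minus strand, -241 to -212): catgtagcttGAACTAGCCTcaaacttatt
Aen (chr7:78895927-78895956, plus strand, -131 to -102): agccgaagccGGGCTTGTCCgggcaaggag
Sesn1 (chr10:41887256-41887285, plus strand, -183 to -154): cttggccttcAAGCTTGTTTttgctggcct
Trp53 (chr11:69580274-69580303, plus strand, -85 to -56): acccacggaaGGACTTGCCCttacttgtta
In Cdkn1a, the decamer nearer the gene start is followed directly by tgacatgttc, which departs from the pattern at 1 base. In Ccng1 the 10 bases directly before the decamer also depart at 1 base, and Sesn1 holds a spaced pair with 2 mismatches. Pairs with at most 2 mismatches stood in 3 of 24 members (12.5%) and in 4.71% of all genes. The remaining members with a match were Ei24 and Abhd4, where it adjoined the gene start or followed it. The Aen decamer shown lies upstream of one annotated start of Aen and downstream of another. The starts used for Sesn1 and Polk lie inside those genes, downstream of another start whose window held no decamer. Cdkn1a also has a further window, inside the gene, without a decamer. A match is a description of letters and not evidence that p53 binds there. Of the 9 members with a decamer, 5 rose and 1 fell with OPH against DMSO, and 4 rose and 1 fell with FMK. Of the 15 without one in these windows, 8 rose and 0 fell with OPH, and 7 rose and 0 fell with FMK.

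Against the vehicle, p53 targets moved mostly upward with both inhibitors. With OPH, 16 of 31 members rose and 1 fell, where 8.61% of the 13255 genes tested rose and 8.11% fell (16.7% in either direction). With FMK, 13 of 31 rose and 1 fell, where 10.4% of genes rose and 10.1% fell (20.6% in either direction). A call is an adjusted p under 0.05 in edgeR's quasi-likelihood test. The median log2 fold change of the 31 members was 0.62 with OPH and 0.41 with FMK, beside -0.0025 and -0.0064 over all genes tested. In the libraries numbered 1 and 2 alone, 15 members rose and 1 fell with OPH, and 14 rose and 1 fell with FMK. Over all genes 1871 and 2583 were then called in either direction. With the replicate number as a block, 19 members rose and 1 fell with OPH, and 16 rose and 1 fell with FMK. Over all genes the block gave 3039 and 3552 calls, against 2216 and 2724 without it. The 2 comparisons share the DMSO libraries and are not independent. The groups did not overlap for any of the 17 members called with OPH or the 14 called with FMK. This was also so for 2196 of the 2216 genes called with OPH and 2670 of the 2724 called with FMK, and it does not set the members apart. Over all genes tested, called or not, the groups were separate for 33.7% with OPH, 35.5% with FMK and 27.1% between OPH and FMK.

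**Figure D1:**
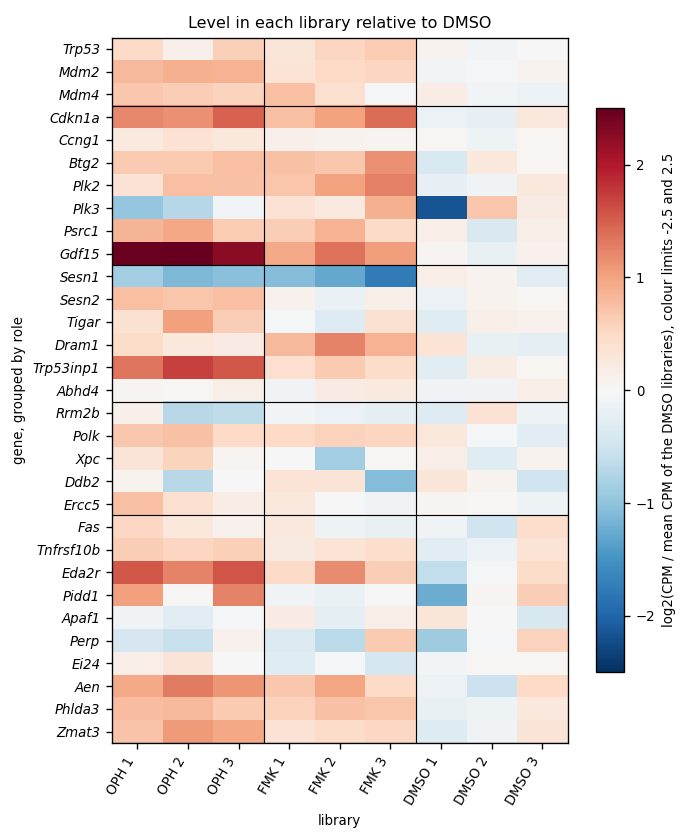
Level of each of the 31 members (rows, grouped by role) in each of the 9 libraries (columns), as log2 of its CPM over the mean CPM of the 3 DMSO libraries, with colour limits of -2.5 and 2.5, beyond which the end colour is used. Gdf15 and Trp53inp1 are the deepest red rows in the OPH libraries and Sesn1 is blue in all OPH and FMK libraries.

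Among p53 and its regulators, the feedback ligase gene Mdm2 (chromosome 10, 117688875 to 117710758, minus strand) rose with both inhibitors. It stood at 145, 153 and 151 CPM with OPH, 104, 118 and 121 CPM with FMK, and 79.2, 81.1 and 88.4 CPM with DMSO. The 3 groups did not overlap, and OPH was highest and DMSO lowest. Its log2 fold change was 0.85 ± 0.09 (SE) with OPH (adjusted p = 3.23e-06) and 0.46 ± 0.09 with FMK (adjusted p = 0.00129). Mdm4, which binds and restrains p53 without being a strong ligase, rose with OPH to 58.9 ± 2.41 CPM, against 38.4 ± 4.59 CPM with DMSO (SD, n = 3; adjusted p = 0.0128). With FMK it had 50.8 ± 13.3 CPM and overlapped DMSO (adjusted p = 0.0870, and 0.0188 with the replicate number as a block). Trp53 (chromosome 11, 69580359 to 69591873, plus strand) had 34.9, 27.2 and 37.7 CPM with OPH, 30.7, 36.1 and 38.6 CPM with FMK, and 26.4, 23.7 and 24.7 CPM with DMSO. Every inhibitor library was above every DMSO library. Groups without overlap, in either direction, were found for 33.7% of all genes tested with OPH and 35.5% with FMK. The change of 0.49 ± 0.15 with FMK passed (adjusted p = 0.0285), and that of 0.41 ± 0.15 with OPH did not (adjusted p = 0.0738, and 0.0415 with the block).

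Of the 7 genes of cell cycle control and signalling, 6 rose with OPH and 5 with FMK. Cdkn1a, which encodes the cyclin-dependent kinase inhibitor p21 (chromosome 17, 29090976 to 29100727, plus strand), had 294, 285 and 355 CPM with OPH. It had 217, 258 and 337 CPM with FMK and 117, 112 and 156 CPM with DMSO. Both inhibitor groups lay wholly above DMSO, and library 3 was the highest of its group in each. The change was 1.28 ± 0.19 with OPH (2.43-fold, adjusted p = 0.00199) and 1.07 ± 0.19 with FMK (2.10-fold, adjusted p = 0.00387). Within numbers 1, 2 and 3 the log2 ratio to DMSO was 1.34, 1.35 and 1.18 with OPH and 0.89, 1.20 and 1.11 with FMK.

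Gdf15, a secreted stress cytokine of the TGF-beta superfamily (chromosome 8, 70629393 to 70632456, minus strand), showed the widest change among the members. Its level was 78.6, 109 and 68.2 CPM with OPH, 27.4, 36.4 and 29.6 CPM with FMK, and 14.9, 12.6 and 15.3 CPM with DMSO. The 3 groups were fully separate, and the lowest OPH library was above the highest FMK library. The change was 2.58 ± 0.18 with OPH (5.97-fold, adjusted p = 3.43e-08) and 1.13 ± 0.18 with FMK (2.18-fold, adjusted p = 0.000289).

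Btg2, an antiproliferative cofactor of mRNA deadenylation, stood at 43.4, 42.9 and 46.4 CPM with OPH, 45.7, 43.7 and 60.5 CPM with FMK, and 21.0, 32.9 and 28.2 CPM with DMSO. Psrc1, a microtubule-binding protein gene of mitosis, had 42.8, 46.5 and 36.9 CPM with OPH, 36.4, 43.6 and 33.1 CPM with FMK, and 26.8, 18.2 and 26.3 CPM with DMSO. In both genes each inhibitor group was wholly above DMSO while the inhibitor groups overlapped each other. Btg2 rose by 0.69 ± 0.16 with OPH and 0.87 ± 0.16 with FMK, and Psrc1 by 0.82 ± 0.16 and 0.67 ± 0.17 (adjusted p = 0.000883 to 0.00764 over the 4 tests). Plk2, a polo-like kinase gene of centriole duplication, had 55.9, 73.2 and 72.5 CPM with OPH, 70.9, 87.9 and 104 CPM with FMK, and 38.0, 40.8 and 52.0 CPM with DMSO. It rose by 0.62 ± 0.16 with OPH (adjusted p = 0.0143) and by 1.01 ± 0.16 with FMK (adjusted p = 0.00033). Ccng1, which encodes cyclin G1, rose with OPH by 0.29 ± 0.08 (adjusted p = 0.0215) and had a change of 0.09 ± 0.08 with FMK (adjusted p = 0.492). Plk3, a stress-responsive polo-like kinase gene with 6 to 42 counts per library, did not pass with either inhibitor (-0.53 ± 0.53 with OPH and 0.53 ± 0.51 with FMK), and a gene on the opposite strand, Tctex1d4, overlaps its end.

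**Figure D2:**
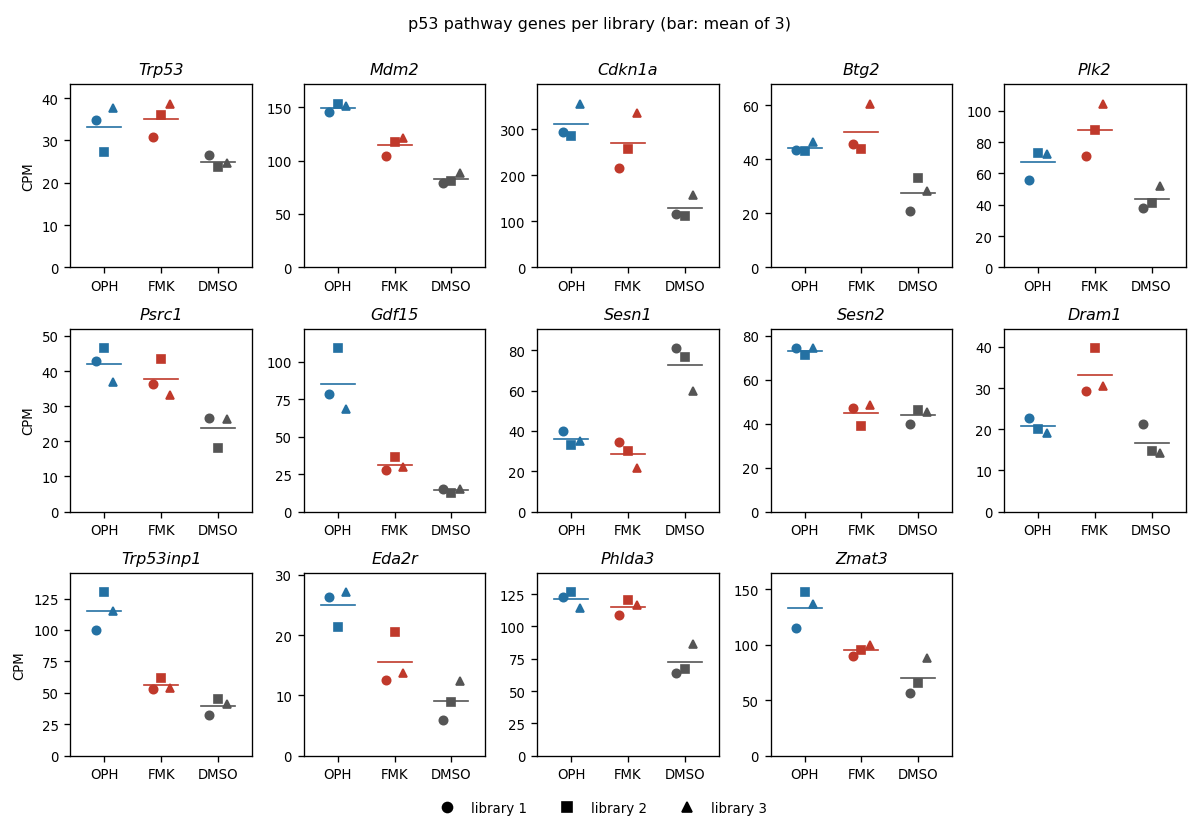
Level in CPM (vertical axes, from 0) of 14 members in the 3 libraries of each group (horizontal axis: OPH, FMK, DMSO), with symbols for library numbers and a bar at the mean. Mdm2, Gdf15 and Trp53inp1 form 3 separate levels, and so, by narrow gaps, do Zmat3 and Eda2r, whereas Sesn1 is the gene shown that is lower with both inhibitors.

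Of 6 genes of metabolism and autophagy, 2 rose and 1 fell with each inhibitor. Sesn1 and Sesn2 encode sestrins, stress proteins that restrain the growth regulator mTORC1, and they went opposite ways with OPH. Sesn1 (chromosome 10, 41809935 to 41908424, plus strand) had 39.8, 33.1 and 35.1 CPM with OPH, 34.5, 30.1 and 21.7 CPM with FMK, and 81.1, 76.8 and 60.0 CPM with DMSO. All inhibitor libraries were below all DMSO libraries. It was the only member of the 31 that fell, by 1.01 ± 0.16 on the log2 scale with OPH (adjusted p = 0.000243) and by 1.33 ± 0.16 with FMK (adjusted p = 1.04e-05). Sesn2 (chromosome 4, 132492032 to 132510501, minus strand) had 74.3, 71.1 and 74.2 CPM with OPH, 47.0, 39.1 and 48.4 CPM with FMK, and 39.7, 46.3 and 45.5 CPM with DMSO. The OPH libraries stood alone, and FMK and DMSO overlapped. The change was 0.74 ± 0.12 with OPH (adjusted p = 0.000226) and 0.03 ± 0.12 with FMK (95% interval -0.22 to 0.28, adjusted p = 0.894). Both directions of the sestrins with OPH were the same under each scaling tried.

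Trp53inp1, a nuclear stress protein that promotes p53 activity and autophagy (chromosome 4, 11156431 to 11174379, plus strand), had 100.0, 129.8 and 115 CPM with OPH. It had 52.8, 61.7 and 54.3 CPM with FMK and 32.4, 45.0 and 41.0 CPM with DMSO. The 3 groups were separate, in the order OPH, FMK, DMSO. The change was 1.54 ± 0.13 with OPH (2.91-fold, adjusted p = 1.99e-07) and 0.51 ± 0.13 with FMK (adjusted p = 0.0105). Dram1, a lysosomal membrane protein gene of autophagy, showed the other order, with 22.8, 20.0 and 19.1 CPM with OPH, 29.4, 39.7 and 30.5 CPM with FMK, and 21.2, 14.7 and 14.2 CPM with DMSO. It rose with FMK by 0.99 ± 0.18 (adjusted p = 0.000739), while OPH overlapped DMSO (0.31 ± 0.19, adjusted p = 0.302). Tigar, whose product lowers glycolytic flux, had a change of 0.70 ± 0.26 with OPH (adjusted p = 0.0799, and 0.0400 with the block) and of 0.03 ± 0.27 with FMK (adjusted p = 0.961). Abhd4, a lipid hydrolase gene, changed by 0.09 ± 0.11 with OPH and 0.13 ± 0.11 with FMK and did not pass.

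Of 5 DNA repair genes 1 rose with each inhibitor and 0 fell. It was Polk, a polymerase gene for copying across damaged bases. It averaged 24.3 ± 1.92 CPM with OPH, 22.7 ± 0.608 CPM with FMK and 15.6 ± 3.12 CPM with DMSO (adjusted p = 0.0157 with OPH and 0.0349 with FMK). Ercc5, a nuclease gene of nucleotide excision repair, had a change of 0.47 ± 0.16 with OPH (adjusted p = 0.0557, and 0.0161 with the block) and 0.06 ± 0.16 with FMK (adjusted p = 0.839). Xpc and Ddb2, which recognise damage in the same repair pathway, and Rrm2b, a ribonucleotide reductase subunit gene, ranged from -0.35 to 0.33 and did not pass with either inhibitor. Their levels were 2.94 to 19.6 CPM, and each of their 95% intervals included 0, which leaves their direction undetermined. An opposite-strand gene, Acp2, overlaps the end of Ddb2.

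Among 10 genes of cell death, 5 rose with OPH and 3 with FMK, and 0 fell. Phlda3, an inhibitor of the survival kinase Akt (chromosome 1, 135766119 to 135769136, plus strand), had 123, 126 and 114 CPM with OPH, 109, 120.3 and 117 CPM with FMK, and 63.8, 66.8 and 86.8 CPM with DMSO. Both inhibitor groups were wholly above DMSO and overlapped each other. It rose by 0.74 ± 0.11 with OPH (adjusted p = 0.000142) and 0.67 ± 0.11 with FMK (adjusted p = 0.000272). Zmat3, an RNA-binding zinc finger protein gene (chromosome 3, 32334792 to 32366014, minus strand), had 115, 147 and 136 CPM with OPH, 89.8, 95.5 and 99.5 CPM with FMK, and 56.2, 66.0 and 87.6 CPM with DMSO. The 3 groups were separate, although DMSO library 3 nearly reached FMK library 1. It rose by 0.92 ± 0.14 with OPH (adjusted p = 0.00034) and by 0.44 ± 0.14 with FMK (adjusted p = 0.0396).

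Of the death receptor genes, Eda2r and Tnfrsf10b rose with OPH, Eda2r also rose with FMK, and Fas did not pass. Eda2r, the receptor of ectodysplasin A2 (chromosome X, 97333840 to 97377216, minus strand), had 26.4, 21.3 and 27.1 CPM with OPH, 12.6, 20.5 and 13.8 CPM with FMK, and 5.91, 8.87 and 12.4 CPM with DMSO. It rose by 1.46 ± 0.25 with OPH (adjusted p = 0.000615) and by 0.79 ± 0.26 with FMK (adjusted p = 0.0384), where FMK library 1 and DMSO library 3 nearly met. Tnfrsf10b, the TRAIL receptor gene, rose with OPH to 60.8 ± 1.82 CPM, against 40.7 ± 9.74 CPM with DMSO (adjusted p = 0.0091). With FMK it had 51.3 ± 3.90 CPM (adjusted p = 0.120, and 0.0377 with the block). Fas averaged 16.9 ± 2.53 CPM with OPH, 13.6 ± 2.37 CPM with FMK and 13.7 ± 4.44 CPM with DMSO, and the groups overlapped (adjusted p = 0.444 with OPH and 0.984 with FMK).

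Aen, an apoptosis-enhancing nuclease gene, rose with OPH to 12.8 ± 1.62 CPM, against 5.87 ± 2.18 CPM with DMSO (adjusted p = 0.00995). With FMK it had 9.74 ± 1.72 CPM (adjusted p = 0.0832, and 0.0498 with the block). Apaf1, the scaffold of the apoptosome that activates caspase-9, averaged 26.3 ± 2.25 CPM with OPH, 30.3 ± 4.62 CPM with FMK and 29.0 ± 6.85 CPM with DMSO, and did not pass (adjusted p = 0.677 with OPH and 0.854 with FMK). Pidd1, the scaffold that activates caspase-2, the desmosomal gene Perp and Ei24, a gene of an endoplasmic reticulum protein, also did not pass, with changes from -0.27 to 0.84 (adjusted p = 0.216 to 0.979). Pidd1 and Perp were measured on 8 to 109 counts per library, and Gm26787 overlaps the end of Ei24 on the opposite strand.

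**Figure D3:**
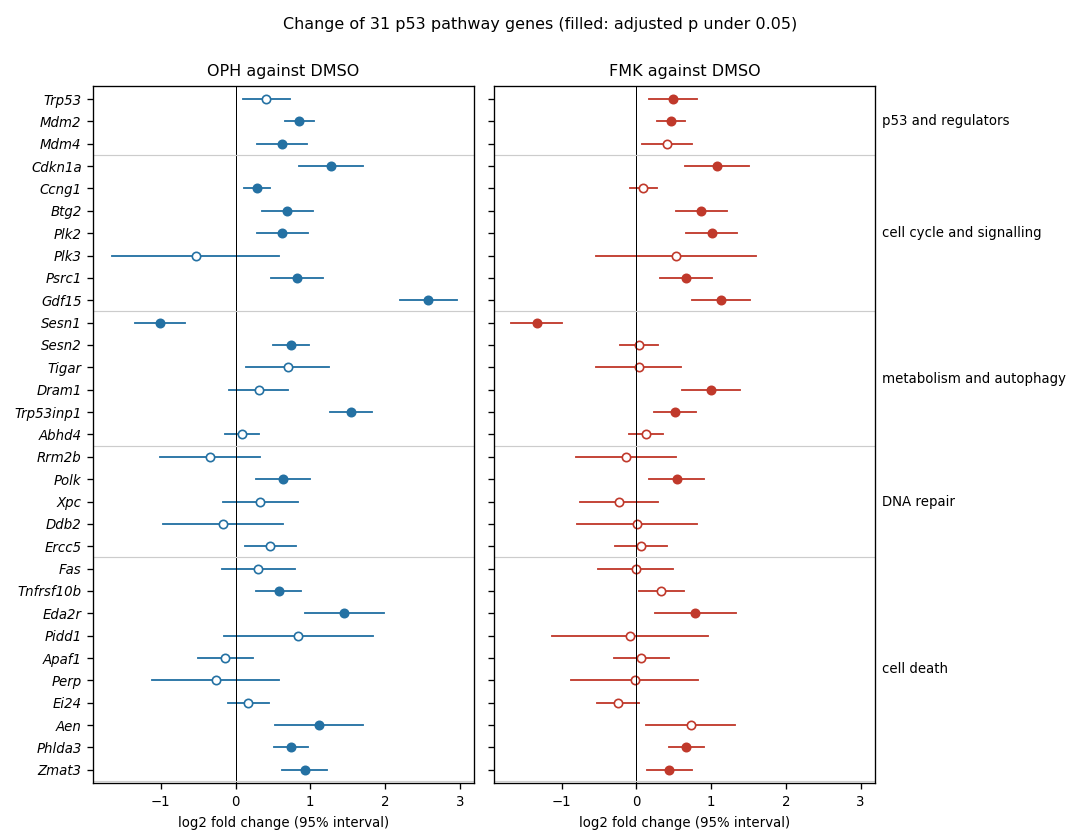
Log2 fold change (horizontal axis, with its 95% interval) of the 31 members (rows, by role) for OPH against DMSO on the left and FMK against DMSO on the right. Filled points have an adjusted p under 0.05, and they lie right of 0 for 16 members with OPH and 13 with FMK, and left of 0 for Sesn1.

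The calls differed in firmness. For OPH against DMSO, 11 of 17 calls held under all 16 alternative settings tried: Mdm2, Cdkn1a, Btg2, Psrc1, Gdf15, Sesn1, Sesn2, Trp53inp1, Eda2r, Phlda3 and Zmat3. Mdm4 was lost without DMSO library 2 (adjusted p = 0.0528), Tnfrsf10b without DMSO library 1 (0.0577), and Aen and Ccng1 without DMSO library 2 (0.0519 and 0.105) or OPH library 2 (0.0515 and 0.0974). Plk2 was lost without DMSO library 1 or 2 or OPH library 2 or 3 (0.0567 to 0.0698). Polk was lost without DMSO library 2 or 3 or OPH library 2 (0.0527 to 0.0767) and in the libraries numbered 1 and 2 (0.0667).

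For FMK against DMSO, 8 of 14 calls held under all 16 settings: Mdm2, Cdkn1a, Btg2, Plk2, Gdf15, Sesn1, Dram1 and Phlda3. The count of members that rose was 7 without FMK library 2, against 13 with it. Psrc1 was lost without FMK library 2 (adjusted p = 0.0511) and Trp53inp1 without that library (0.0587) or DMSO library 1 (0.0636). Zmat3 was lost without DMSO library 1 or 2 or any FMK library (0.0687 to 0.151), and Polk without DMSO library 2 or 3 or any FMK library (0.0650 to 0.139). Eda2r was lost without DMSO library 1 or 2 or FMK library 2 (0.107 to 0.209), and Trp53 without DMSO library 2 or 3 or FMK library 2 or 3 (0.0621 to 0.0984). In the libraries numbered 1 and 2 the calls of Trp53 (0.136) and Polk (0.190) were lost. Eda2r and Polk were also lost when only FMK and DMSO entered the fit (0.0684 and 0.0550), Eda2r with limma-voom (0.0673) and Polk with DESeq2 (0.0517). Scaling by library size alone also ended the calls of Trp53 (0.0765), Zmat3 (0.105), Eda2r (0.0660) and Polk (0.0816). That scaling moved the median of all genes by -0.10, and 1012 genes then rose and 1938 fell with FMK, against 1383 and 1341 with the scaling used here.

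Compared directly at the same dose and time, OPH gave higher levels than FMK in 5 of 31 members and a lower level in 1, where 4.20% of genes were higher and 4.66% lower (8.86% in either direction). The median difference was 0.21 on the log2 scale over the members and 0.0084 over all genes tested. Only this pair of compounds could be compared, and p-values were adjusted over all genes tested. The 5 members were Gdf15, Trp53inp1, Sesn2, Zmat3 and Mdm2, and the lower one was Dram1. The differences on the log2 scale were 1.45 ± 0.17 for Gdf15 (2.73-fold, adjusted p = 5.66e-05), 1.03 ± 0.13 for Trp53inp1 (2.04-fold, adjusted p = 8.35e-05) and 0.71 ± 0.12 for Sesn2 (1.63-fold, adjusted p = 0.00102). These 3 held under all 16 settings, and within each library number the sign was the same. For Zmat3 the difference was 0.48 ± 0.14 (adjusted p = 0.0429), for Mdm2 0.39 ± 0.09 (adjusted p = 0.0114) and for Dram1 -0.68 ± 0.18 (adjusted p = 0.0241).

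The smaller differences between OPH and FMK did not hold without some of the libraries. The count of higher members was 3 without FMK library 1 and without OPH library 2, and the count of lower ones was 0 without FMK library 2 and without OPH library 2 or 3. Zmat3 was lost without any FMK library or OPH library 2 or 3 (adjusted p = 0.0838 to 0.169) and with limma-voom (0.0517). Mdm2 was lost without FMK library 1 (0.0690) or OPH library 2 (0.0545), and Dram1 without FMK library 2 (0.128) or OPH library 2 or 3 (0.0921 and 0.0812). With the replicate number as a block the count was 8 higher and 2 lower, where 2139 of all genes were called, against 1175 without it. The members added were Eda2r (adjusted p = 0.0276), Ei24 (0.0174) and Ercc5 (0.0485) as higher and Plk2 (0.0111) as lower. In the libraries numbered 1 and 2 alone, 5 were higher and 1 lower, where 1326 of all genes were called. With library size as the only scaling 9 were higher and 1 lower, after a shift of 0.11 in the median of all genes, and over all genes 1103 were then higher and 385 lower, against 557 and 618.

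For the other members no difference between the inhibitors passed, which does not show that the compounds act alike. For Cdkn1a the difference was 0.21 ± 0.18 (95% interval -0.21 to 0.62, adjusted p = 0.582), for Trp53 -0.08 ± 0.15 (-0.40 to 0.23, adjusted p = 0.814) and for Phlda3 0.07 ± 0.11 (-0.16 to 0.30, adjusted p = 0.757). For Sesn1 it was 0.32 ± 0.16 (-0.03 to 0.67, adjusted p = 0.259), so a difference above 0.67 lay outside the interval. The widest intervals belonged to Plk3 (-2.16 to 0.04) and Pidd1 (-0.08 to 1.93).

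**Figure D4:**
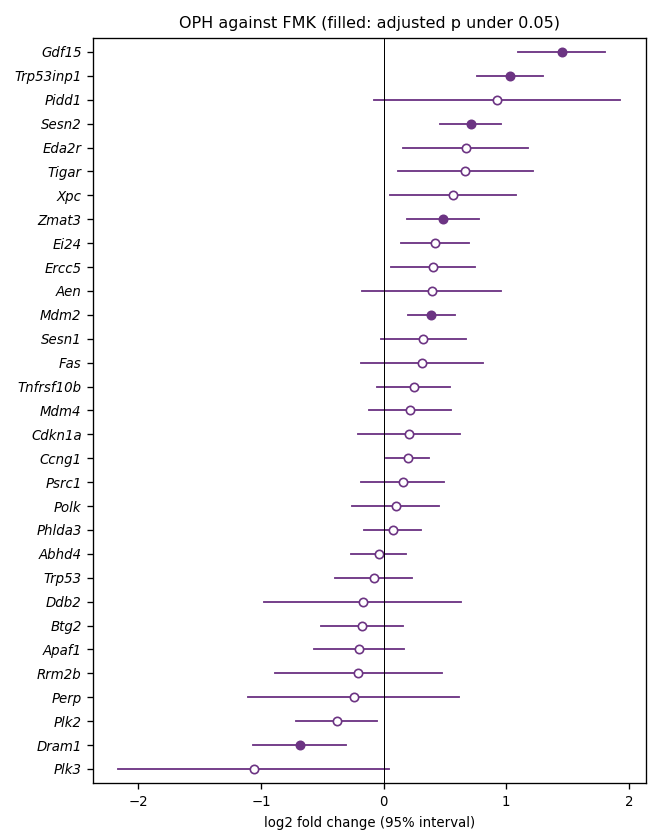
Log2 fold change of OPH against FMK with its 95% interval (horizontal axis) for the 31 members (rows, ordered by the change). Filled points have an adjusted p under 0.05, namely Gdf15, Trp53inp1, Sesn2, Zmat3 and Mdm2 as higher with OPH and Dram1 as lower.

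Other genes of the p53 pathway came from a list of 37 genes in the table, of which 35 were tested. With each inhibitor 11 rose, 1 fell and 23 did not pass, where 8.61% of all genes rose with OPH and 10.4% with FMK. With the block 12 rose and 2 fell with each, where 3039 of all genes were called in either direction with OPH and 3552 with FMK. The median change was 0.17 with OPH and 0.11 with FMK. Between the inhibitors 5 were higher and 3 lower with OPH (7 and 5 with the block), where 4.20% of all genes were higher and 4.66% lower. The median difference was -4.5e-05, with 17 positive and 18 negative. The lower ones were Cdkn2a, Ier5 (-0.67 ± 0.10) and Tnfaip8 (-0.45 ± 0.10). Ier5 rose by 0.42 ± 0.11 with OPH and 1.09 ± 0.11 with FMK. Bbc3, which encodes the apoptosis activator PUMA, rose by 1.47 ± 0.11 with OPH (adjusted p = 3.92e-08) and by 0.68 ± 0.11 with FMK (adjusted p = 0.000254), and the difference of 0.79 ± 0.11 passed (adjusted p = 0.000178). Pml, of the nuclear bodies and itself an interferon-stimulated gene, rose by 1.80 ± 0.13 with OPH and 2.12 ± 0.13 with FMK. Gadd45a, a growth arrest gene, rose by 1.19 ± 0.12 with OPH and 0.60 ± 0.12 with FMK, and Atm, the kinase gene that signals DNA breaks, by 0.85 ± 0.15 and 0.55 ± 0.16. Cdkn2a, the locus of the Mdm2 inhibitor ARF and of p16, had a change of 0.14 ± 0.11 with OPH (adjusted p = 0.457) and rose with FMK by 0.84 ± 0.11 (adjusted p = 1.69e-05), a difference of -0.70 ± 0.11 between OPH and FMK (adjusted p = 0.000549). Counts of transcript ends do not separate the products of Cdkn2a. Pmaip1, the gene of the apoptosis activator NOXA, was looked at after its values were seen, because the block changed its call. It had 17.8, 21.3 and 32.3 CPM with OPH, 14.05, 21.5 and 43.6 CPM with FMK, and 7.31, 12.1 and 26.6 CPM with DMSO. Library 3 was the highest of each group, and the adjusted p was 0.583 with OPH and 0.461 with FMK without the block, and 0.00294 and 0.00117 with it.

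Downstream of p21, 20 cell cycle genes known to be repressed through the DREAM complex were examined. The part of p21, of DREAM or of a changed cell mixture in their levels was not tested. With OPH 0 rose and 4 fell, where 8.11% of all genes fell, and 18 of the 20 changes were negative, with a median of -0.31. Over all genes tested, 6669 of 13255 changes with OPH were negative. The 4 that fell were Birc5 (-0.43 ± 0.10), Ccnb2 (-0.53 ± 0.15), Kif23 (-0.66 ± 0.19) and Cdk1 (-0.37 ± 0.11), all genes of mitosis (adjusted p = 0.00573 to 0.0349). With FMK, 1 rose and 0 fell, where 10.4% of all genes rose and 10.1% fell. Of the 20 changes 11 were negative, with a median of -0.039, beside 6710 of 13255 over all genes tested. The gene that rose was Cenpf, of the kinetochore (0.40 ± 0.12, adjusted p = 0.0235). Between the inhibitors, 0 were higher and 2 lower with OPH, where 4.20% of all genes were higher and 4.66% lower. The 2 were Cenpf (-0.46 ± 0.12, adjusted p = 0.0211) and Cdk1 (-0.41 ± 0.12, adjusted p = 0.0312). Under the block 6 were lower with OPH than with FMK, where 2139 of all genes were called in either direction. The added genes were Kif23 (adjusted p = 0.00368), Top2a (0.0202), Aurka (0.0287) and Ccnb2 (0.0362). The block also added Ccnb1 as lower with OPH against DMSO (0.0173) and Ccna2 as lower with FMK against DMSO (0.0428).

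Other gene groups moved in the same libraries. Their counts stand beside shares over all genes of 8.61% higher and 8.11% lower with OPH, and 10.4% and 10.1% with FMK. For OPH against FMK the shares were 4.20% and 4.66%. With the block, 3039, 3552 and 2139 of all genes were called in these comparisons, against 2216, 2724 and 1175 without it. Gdf15 and Sesn2 are also known targets of ATF4, and of 15 genes of the integrated stress response 7 rose with OPH and 5 with FMK against DMSO. With OPH 0 fell and 8 did not pass, among them Asns (0.17 ± 0.13), Psat1 (-0.06 ± 0.11) and Chac1 (0.05 ± 0.19). With FMK 1 fell, Chac1 (-0.63 ± 0.20, adjusted p = 0.0424), and 9 did not pass. Atf4 ranked 6 of the 15 by p with OPH and 12 with FMK. It rose with OPH by 0.46 ± 0.08 (adjusted p = 0.000368) and had a change of 0.05 ± 0.08 with FMK (adjusted p = 0.694). Trib3, an ATF4 target, was higher with OPH than with FMK by 0.87 ± 0.10 (adjusted p = 2.70e-05), and 3 of the 15 genes were higher and 1 lower in that comparison. The lower gene was Nupr1 (-0.36 ± 0.08, adjusted p = 0.0126). Btg2 and Plk2 are also immediate early genes. Of 15 other immediate early genes, of which Atf3 is also in the stress list, 8 rose with OPH and 10 with FMK, and 7 were lower with OPH than with FMK. With the block, 5 genes of the stress list were higher and 2 lower with OPH than with FMK. Interferon-stimulated genes rose in 15 of 15 cases with each inhibitor, and their sums were 8996 to 9757 CPM with OPH, 9899 to 12821 CPM with FMK and 253 to 454 CPM with DMSO. Of the macrophage markers, 20 of 20 tested fell with each inhibitor, with medians of -2.90 with OPH and -5.96 with FMK, and 15 of 20 were higher with OPH than with FMK (median 3.21). Of 11 adipocyte markers tested, 0 fell with OPH and 6 with FMK. With the block, 2 fell and 1 rose with OPH, and 10 fell and 0 rose with FMK. Between OPH and FMK, 11 of 11 differences were positive (median 4.40), of which 1 passed, and 11 with the block. Over all genes tested, 6778 of 13255 differences were positive. Of 19 cartilage genes, 9 fell with OPH and 13 with FMK, and 16 and 17 with the block. The part of these groups in the changes of the p53 targets was not tested.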

How the data were processed

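Counts per gene of 9 libraries, 3 per group, were analysed. The libraries read transcript 3' ends, per the labels' protocols. The deposited table holds raw, unnormalised counts. FastQC, MultiQC, cutadapt, STAR and DESeq2 with the mm10 genome are named without versions, per the submitters' processing notes. The counting program, annotation and strand setting were not given in the sources used here, so members overlapped by an opposite-strand gene are uncertain. Gene positions are from GENCODE M21 (GRCm38). The table's 99 rows that name no gene (1 count in all) were left out.

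Genes were kept by filterByExpr (13255), scaled by TMM (factors 0.945 to 1.03) and tested with edgeR 4.0.16 in R 4.3.3, by a robust quasi-likelihood fit of all 9 libraries with 1 coefficient per group and no block. Tests were two-sided with Benjamini-Hochberg adjustment over all genes. Standard errors come from the fold change and its F statistic, and intervals are 95%. Libraries of a group differed beyond counting noise (a chi-square statistic 5.47 to 13.5 times its degrees of freedom). The labels call the experiments biological replicates.

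Deviations from group means correlated at 0.102 to 0.344 between libraries of the same number and at -0.275 to 0.0147 otherwise. The numbers in the sample titles may therefore pair the libraries, and the block uses this. The main fit has no block, so its standard errors, intervals and adjusted p-values leave such a pairing unused. Blocked values are given where they change the call of a member or a count stated for a list by over 1.5 times.

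Members and lists were chosen with earlier results of these data known. Values per library are given for the 12 members with the smallest p and for Trp53, Mdm2 and Cdkn1a. Genes of the other lists are named beside the count of all tested, and not all of them were picked by rank of p. Alternatives were RLE or no scaling, 3 other filters, DESeq2 1.42.0, limma-voom (limma 3.58.1), only the groups compared, the block, the libraries numbered 1 and 2, and each library left out.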

Additional observations from a re-analysis of the deposited data

How the results depend on the processing

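No called member changed sign under any of the 16 settings tried per comparison, 10 of them changes of method or sample set and 6 leaving out 1 library each. With each library left out in turn, the members that rose numbered 11 to 16 for OPH against DMSO, 7 to 13 for FMK against DMSO and 3 to 5 for OPH against FMK. Those that fell numbered 1 throughout for both comparisons with DMSO and 0 to 1 for OPH against FMK. Genes called over the whole table were 1487 to 1779 for OPH against DMSO, 1979 to 2512 for FMK against DMSO and 571 to 1050 for OPH against FMK (571 without OPH library 2, 709 without FMK library 2 and 712 without FMK library 1). Fewer libraries were tested in these fits. For OPH against FMK, scaling by library size alone gave 9 higher members, and testing without a low-count filter gave 2 lower ones. With the replicate number as a block, OPH against FMK gave 8 higher and 2 lower members and 2139 genes in all, against 5, 1 and 1175 without it, and the cause of the remaining changes was not tested. The block gave 19 higher members for OPH against DMSO, with 3039 genes called in all, against 2216 without it. For FMK against DMSO it gave 16 higher members, with 3552 genes called in all, against 2724. It changed the calls of 3, 3 and 4 members in OPH against DMSO, FMK against DMSO and OPH against FMK, and of no other member. The planned filter of 1 CPM in 3 libraries kept more genes than the one used, so a filter of 5 CPM in 3 libraries was added after seeing the data. Depth limits the members under about 10 CPM, such as Plk3, Pidd1 and Rrm2b. It also limits the called members Aen and Eda2r, which averaged 5.87 and 9.05 CPM with DMSO (25 to 57 and 38 to 85 counts per library).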
